A study of Arabidopsis thaliana with 30 samples.

Results

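The 47 genes described here are the core cell cycle and DNA replication genes of Arabidopsis thaliana, and they are 47 of the 32833 genes counted. They were taken by gene identifier from families with a known place in the cycle and sorted into classes. The rule uses no measured value, but the list was drawn up with earlier results of these data known. The G1 class has 12 genes: the D-type cyclins CYCD1;1 (AT1G70210), CYCD2;1 (AT2G22490), CYCD3;1 (AT4G34160), CYCD3;2 (AT5G67260), CYCD3;3 (AT3G50070), CYCD4;1 (AT5G65420), CYCD5;1 (AT4G37630) and CYCD6;1 (AT4G03270), the retinoblastoma-related repressor RBR1 (AT3G12280) and the transcription factors E2FA (AT2G36010), E2FB (AT5G22220) and E2FC (AT1G47870). The S class has 11 genes for DNA replication, namely PCNA1 (AT1G07370), PCNA2 (AT2G29570), MCM2 (AT1G44900), MCM3 (AT5G46280), MCM4 (AT2G16440), MCM5 (AT2G07690), MCM6 (AT5G44635), MCM7 (AT4G02060), CDT1A (AT2G31270), CDC6A (AT2G29680) and TSO2 (AT3G27060). The M class has 20 genes. It holds the A-type cyclin CYCA1;1 (AT1G44110) and the B-type cyclins CYCB1;1 (AT4G37490), CYCB1;2 (AT5G06150), CYCB1;3 (AT3G11520), CYCB1;4 (AT2G26760), CYCB2;1 (AT2G17620), CYCB2;2 (AT4G35620), CYCB2;3 (AT1G20610) and CYCB2;4 (AT1G76310). It also holds the B-type cyclin-dependent kinases CDKB1;1 (AT3G54180), CDKB1;2 (AT2G38620), CDKB2;1 (AT1G76540) and CDKB2;2 (AT1G20930), the anaphase activators CDC20.1 (AT4G33270) and CDC20.2 (AT4G33260), the Aurora kinases AUR1 (AT4G32830) and AUR2 (AT2G25880), and the cytokinesis genes KNOLLE (AT1G08560), PLE (AT5G51600) and HIK (AT1G18370). The inhibitor class has 4 genes, KRP1 (AT2G23430), KRP2 (AT3G50630), SIM (AT5G04470) and LGO (AT3G10525).

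Poly-A RNA of whole seedlings, labelled as 6 days old, was sequenced in 30 libraries, 3 in each of 10 groups. The bak set held submerged bak1-3 bkk1-1, mock bak1-3 bkk1-1, submerged Col and mock Col. The tcp set held submerged tcpq, mock tcpq, submerged tcp21, mock tcp21, submerged Col and mock Col. Col is the wild-type accession. The alleles bak1-3 and bkk1-1 are T-DNA insertions in BAK1 and BKK1, kinases that act as partners of brassinosteroid and immune receptors. The tcp21 and tcpq plants are labelled as CRISPR lines; TCP21 encodes a class I TCP transcription factor, and which genes were edited in tcpq, and how long submergence lasted, is not given in the sources used here. How many seedlings each library pooled, and whether replicates were separate cultures, is not given either, so a p-value here measures only how far these libraries spread.

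Library totals ran from 19662531 to 27417759 counts in the bak set and from 17466180 to 33957452 in the tcp set, and all 47 genes passed the filter on low counts in both. BAK1 had 26.0 to 29.4 counts per 1000000 counts (CPM) in mock bak1-3 bkk1-1 and 69.6 to 86.9 in mock Col. BKK1 had 11.5 to 15.1 and 30.9 to 44.2 CPM in the same groups. TCP21 had 27.9 to 33.0 CPM in mock tcp21, 19.9 to 23.6 in mock tcpq and 83.2 to 102 in mock Col of the tcp set. In submerged seedlings BAK1 had 70.8 to 85.7 CPM in bak1-3 bkk1-1 and 116 to 143 in Col, so the submerged mutant reached the range of mock Col, and BKK1 had 18.7 to 19.7 and 41.3 to 52.2 CPM. TCP21 had 19.9 to 27.6 CPM in submerged tcp21, 58.4 to 64.9 in submerged tcpq and 73.5 to 83.4 in submerged Col of the tcp set. Each range of a mutant lay below that of Col in the same treatment, by little for TCP21 in submerged tcpq, and an insertion or an edit need not lower the transcript. In the genotype field, mock Col replicate 1 of the tcp set carries the name of the bak1-3 bkk1-1 insertion lines; its title and strain field say Col, and it was used as Col. The text of the extraction protocol speaks of germinating seeds or seedlings. Transcripts of 8 seed storage genes summed to 134 to 248 CPM in submerged Col of the bak set and to 263 CPM in its mock Col replicate 2, while the other 26 libraries stayed at or below 10.4 CPM.

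In plants, D-type cyclins carry growth and hormone signals into G1, where their kinases phosphorylate RBR1 and release E2F factors. E2F factors switch on replication genes: CDC6 and CDT1 load the MCM2 to MCM7 helicase onto DNA, PCNA is the sliding clamp of the DNA polymerases, and TSO2 is a small subunit of the ribonucleotide reductase that makes the DNA precursors. Genes of G2 and M phase carry mitosis-specific activator (MSA) elements read by MYB3R factors; among them, B-type cyclins and CDKB kinases drive mitosis, CDC20 proteins activate the anaphase-promoting complex, and KNOLLE, a syntaxin, and HIK, a kinesin, build the new cell wall. KRP proteins inhibit cyclin-dependent kinases, and SIM and LGO (also called SMR1) turn dividing cells to endoreduplication, in which DNA is copied without mitosis. In whole seedlings such transcripts come mostly from meristems and young organs, so fewer dividing cells and less RNA per dividing cell cannot be told apart in these libraries.

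The start regions of these genes differ in the motif letters they hold. Windows from 250 bases before to 50 bases after each annotated gene start were read from the RefSeq genome and annotation of build TAIR10.1 and searched on both strands for the MSA core AACGG, for the E2F sites TTTCCCGC, TTTGGCGC and TTTCGCGC, and for the class I TCP site GGNCCCAC. The motifs overlapped in no printed window. Of the 5 replication genes with an E2F site, MCM2 and MCM6 are shown as examples. Of the 11 mitotic genes with at least 2 MSA cores, CYCB1;2 and KNOLLE are shown. Values of each are given below. MCM2 lies at chr1:16969964-16970263 on the plus strand, MCM6 at chr5:18010618-18010917 on the minus strand, CYCB1;2 at chr5:1861654-1861953 on the minus strand and KNOLLE at chr1:2710951-2711250 on the minus strand; each window runs 5′ to 3′ on the gene's strand, and capitals mark the motif letters, with CCGTT as the MSA core and GCGGGAAA as the E2F site read from the other strand.
MCM2: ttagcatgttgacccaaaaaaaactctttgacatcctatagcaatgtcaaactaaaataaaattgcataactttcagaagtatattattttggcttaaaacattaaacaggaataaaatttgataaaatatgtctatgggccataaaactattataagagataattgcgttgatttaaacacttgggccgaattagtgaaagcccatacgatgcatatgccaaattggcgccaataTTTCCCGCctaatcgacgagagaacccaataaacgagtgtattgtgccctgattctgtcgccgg
MCM6: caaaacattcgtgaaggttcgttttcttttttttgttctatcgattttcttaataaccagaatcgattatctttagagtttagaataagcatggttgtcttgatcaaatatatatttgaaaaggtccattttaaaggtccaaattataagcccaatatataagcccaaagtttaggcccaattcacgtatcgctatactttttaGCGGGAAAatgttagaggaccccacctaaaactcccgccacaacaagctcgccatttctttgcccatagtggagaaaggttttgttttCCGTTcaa
CYCB1;2: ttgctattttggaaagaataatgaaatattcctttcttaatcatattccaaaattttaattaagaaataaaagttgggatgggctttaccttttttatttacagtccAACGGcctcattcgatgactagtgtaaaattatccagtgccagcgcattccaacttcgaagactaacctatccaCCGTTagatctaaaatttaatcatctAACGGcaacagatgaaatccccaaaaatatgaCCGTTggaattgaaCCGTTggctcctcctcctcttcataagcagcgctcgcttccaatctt
KNOLLE: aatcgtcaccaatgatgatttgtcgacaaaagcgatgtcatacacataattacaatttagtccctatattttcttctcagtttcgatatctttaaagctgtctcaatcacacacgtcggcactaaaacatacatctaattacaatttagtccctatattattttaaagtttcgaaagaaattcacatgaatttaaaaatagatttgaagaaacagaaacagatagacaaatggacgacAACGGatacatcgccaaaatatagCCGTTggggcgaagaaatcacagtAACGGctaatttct

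An MSA core stood in the windows of 15 of 20 M class genes (75%), 3 of 11 S class genes (27.3%), 3 of 12 G1 class genes (25%) and 2 of 4 inhibitors, beside 24.7% of the windows of 27443 protein-coding nuclear genes. At least 2 cores stood in 11 of 20 M class windows (55%), beside 4.89% of all windows. An E2F site was found in 5 of 11 S class windows (45.5%), those of MCM2 to MCM6, in 2 of 12 G1 class windows, those of CYCD3;3 and RBR1, and in no M class window, beside 1.42% of all windows. The class I TCP site stood in 1 of the 47 windows, that of RBR1, beside 1.32% of all windows. Among the inhibitors, KRP1 held 7 MSA cores and KRP2 held 3. A match is a run of letters and not a shown binding site, and PCNA1, CDKB1;1 and CDC20.1, which have known roles in S or M phase, held none of these letters in this window.

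**Figure D1:**
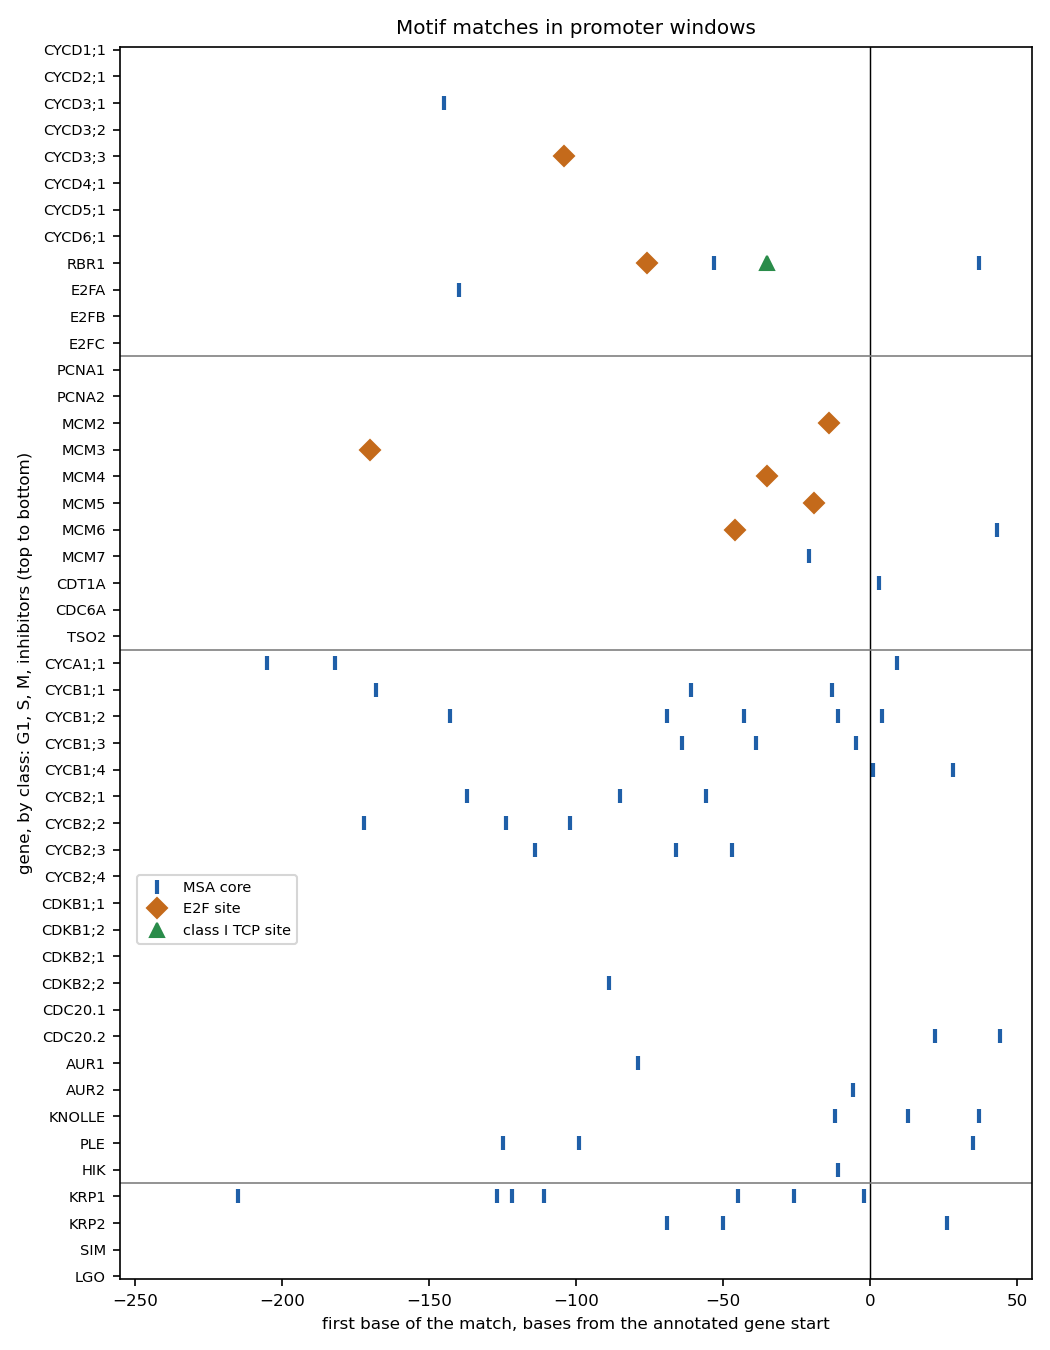
Motif matches in the 300-base window of each gene, by distance in bases from the annotated start; rows are the 47 genes in class order, blue ticks are MSA cores, orange diamonds E2F sites and the green triangle the class I TCP site. MSA cores fill the M class rows (15 of 20), E2F sites sit in 5 S class rows and 2 G1 class rows, and the TCP site lies in RBR1.

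The levels of the mitotic genes lay apart in the sets. Averaged over the 20 M class genes, the level in mock Col was 3.87 ± 0.09 log2 CPM in the bak set and 1.11 ± 0.02 log2 CPM in the tcp set (SD over 3 libraries, prior count 2). The tables were normalised separately, so this gap was not tested and every test below stays within a set. Where values of both sets are set side by side, their difference was not tested. Per kilobase of exon, CYCD3;2 had the highest mean level of the G1 class in all 10 groups, at 35.4 CPM per kb in mock Col of the bak set, and LGO was lowest of the inhibitors in all 10. The lowest member of the M class was CYCB2;1 in all 6 groups of the tcp set, at 0.355 CPM per kb in mock Col, where CDKB2;1 was highest at 3.50 CPM per kb.

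**Figure D2:**
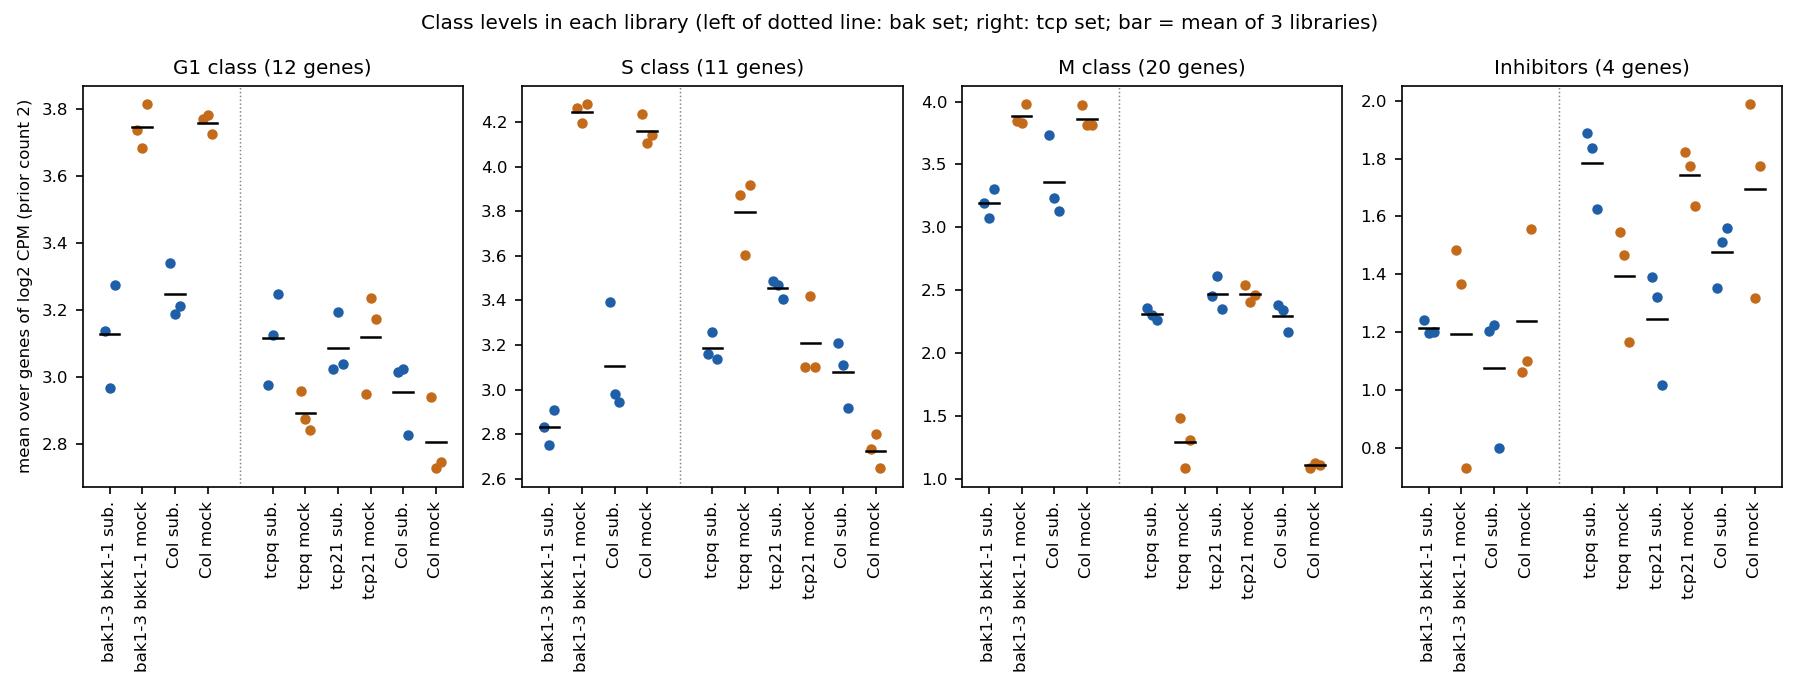
Mean over the genes of a class of log2 CPM in each library (points; blue submerged, orange mock; bar, mean of 3), with the bak set left of the dotted line and the tcp set right of it. In the bak set the submerged groups lie below mock in the G1, S and M classes; in the tcp set the M class lies above mock in submerged tcpq and submerged Col, and at the same height in both treatments in tcp21.

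In Col of the bak set, replication genes were lower under submergence as a class, and so were part of the mitotic genes. All 11 S class genes fell, 9 of 20 M class genes fell and none rose, 5 of 12 G1 class genes fell and 1 rose, and none of the 4 inhibitors was called. That is 1 higher and 25 lower of 47 genes at an edgeR adjusted p below 0.05, beside 25.4% higher and 24.1% lower of the 20666 genes tested. Fold changes are log2 values of submergence over mock, given ± SE, and their median was -0.998 in the S class, -0.42 in the M class and -0.40 in the G1 class, and 0.01 over all genes. Of the called falls, 10 in the S class, 4 in the M class and 4 in the G1 class held when each library was left out in turn. Submerged Col replicate 1 stood above its 2 partners, with an M class sum of 322 CPM where the group's lowest library had 214; without it, 31 genes were lower and 2 higher. Calls among markers of other cell types were 4 higher and 0 lower of 7 stomatal lineage genes and 1 and 0 of 5 root meristem genes. There were also 1 higher and 0 lower of 4 differentiated root genes and 0 and 1 of 4 tested shoot meristem and primordium genes. Their summed levels were 56.0 to 68.7 CPM in submerged Col and 40.7 to 42.2 CPM in mock Col for the stomatal lineage, and 63.0 to 83.0 and 76.1 to 82.8 CPM for the root meristem. The root meristem genes were PLT1, PLT2, WOX5, SHR and SCR, and SCR gave most of their sum in every library. Sums for differentiated root were 49.8 to 55.6 CPM in submerged Col and 42.3 to 53.8 CPM in mock Col, and for shoot meristem and primordia 24.0 to 27.5 and 39.2 to 43.7 CPM. The part of these markers in the falls of the S and M classes was not tested.

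PCNA1, the replication clamp, had the smallest adjusted p of the S class. It stood at 5.35, 4.47 and 3.37 CPM in submerged Col, against 15.5, 14.1 and 14.98 CPM in mock Col, and the groups did not overlap (log2 fold change -1.75 ± 0.19, adjusted p = 4.66e-07). The helicase subunit MCM3 had 11.4, 6.97 and 8.23 CPM in submerged Col, against 24.4, 22.5 and 24.9 CPM in mock Col (log2 fold change -1.42 ± 0.17, adjusted p = 1.49e-06). All 6 MCM genes fell, with log2 fold changes between -1.42 for MCM3 and -0.74 for MCM5. Of the licensing genes, CDT1A changed by -0.68 ± 0.19, adjusted p = 0.00639 and CDC6A by -0.90 ± 0.26, adjusted p = 0.00743.

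Among the D-type cyclins, the fall of CYCD1;1 was the largest change of the whole list. CYCD1;1 had 8.57, 8.23 and 5.92 CPM in submerged Col, against 33.4, 28.001 and 28.7 CPM in mock Col (log2 fold change -1.98 ± 0.16, adjusted p = 1.22e-08), with every submerged library below every mock library. CYCD3;1, a cytokinin-responsive cyclin, changed by -1.24 ± 0.20, adjusted p = 1.05e-04. E2FB, an activating E2F factor, went against its class, at 10.6, 13.5 and 12.8 CPM in submerged Col, against 9.87, 8.38 and 8.41 CPM in mock Col (log2 fold change 0.47 ± 0.14, adjusted p = 0.0114). In the M class, CYCB1;2 had 30.2, 23.7 and 20.9 CPM in submerged Col, against 40.9, 37.1 and 39.0 CPM in mock Col (log2 fold change -0.64 ± 0.13, adjusted p = 4.66e-04). KRP2 had the smallest adjusted p of the inhibitors, and it missed the threshold, with 9.23, 7.64 and 7.07 CPM in submerged Col, against 8.99, 8.79 and 9.97 CPM in mock Col (log2 fold change -0.21 ± 0.21, adjusted p = 0.422). The groups of KRP2 overlapped.

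Under submergence in bak1-3 bkk1-1 more genes passed the test. The S class again fell as a whole (11 of 11, median -1.45), with 17 of 20 M class genes lower (median -0.70) and 5 G1 class genes lower and 2 higher, so that 33 of 47 genes were lower and 2 higher beside 26.4% and 26.3% of all genes. PCNA1 had 3.09, 2.59 and 3.88 CPM in submerged bak1-3 bkk1-1, against 11.8, 13.9 and 12.8 CPM in mock bak1-3 bkk1-1 (log2 fold change -1.9998 ± 0.19, adjusted p = 1.12e-07). CYCD3;3 had 8.90, 8.34 and 7.57 CPM in submerged bak1-3 bkk1-1, against 24.3, 22.3 and 24.2 CPM in mock bak1-3 bkk1-1 (log2 fold change -1.51 ± 0.14, adjusted p = 4.71e-08), beside -0.72 in Col. E2FB rose here too, at 14.7, 15.5 and 14.6 CPM in submerged bak1-3 bkk1-1, against 8.65, 9.42 and 8.56 CPM in mock bak1-3 bkk1-1 (log2 fold change 0.75 ± 0.14, adjusted p = 2.37e-04). RBR1, which binds E2F factors, was also called higher, at 61.3, 53.1 and 52.8 CPM in submerged bak1-3 bkk1-1, against 44.8, 49.0 and 45.7 CPM in mock bak1-3 bkk1-1 (log2 fold change 0.26 ± 0.10, adjusted p = 0.0427), but the call was lost without mock bak1-3 bkk1-1 replicate 1, mock bak1-3 bkk1-1 replicate 2, mock bak1-3 bkk1-1 replicate 3, submerged bak1-3 bkk1-1 replicate 1 or submerged bak1-3 bkk1-1 replicate 2, with adjusted p of up to 0.180. Beside these results the calls among markers were 3 higher and 0 lower of 7 stomatal lineage genes and 1 and 1 of 5 root meristem genes. Beside these were 1 higher and 0 lower of 4 differentiated root genes and 0 and 1 of 4 tested shoot meristem and primordium genes. The sums were 58.2 to 67.1 CPM in submerged bak1-3 bkk1-1 and 45.1 to 50.8 CPM in mock bak1-3 bkk1-1 for the stomatal lineage, and 68.4 to 73.1 and 72.0 to 76.8 CPM for the root meristem. Differentiated root genes summed to 51.9 to 79.7 CPM in submerged bak1-3 bkk1-1 and 57.1 to 67.1 CPM in mock bak1-3 bkk1-1, and shoot meristem and primordium genes to 25.3 to 30.0 and 40.6 to 44.4 CPM. Their part was not tested.

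No member passed the test between bak1-3 bkk1-1 and Col in edgeR. In mock seedlings 0 of 47 genes were called, with 4 at an unadjusted p below 0.05 and 0 in DESeq2, beside 0.721% higher and 0.135% lower of all genes in edgeR. Under submergence edgeR called 0, beside 0.629% higher and 0.750% lower of all genes, and 10 members had an unadjusted p below 0.05. DESeq2 called 1 member there, and 292 higher and 398 lower over all genes. What share of all genes had an unadjusted p below 0.05 is not given here for any of these comparisons. For the difference between the submergence responses, edgeR called 0 members, beside 0.00968% higher and 0.0290% lower of all genes. There 9 members had an unadjusted p below 0.05, and DESeq2 called 2 members, and 35 higher and 64 lower over all genes. The larger number of falls in the mutant was therefore not shown to be a difference in response. CYCD4;1, a cyclin of lateral root and stomatal divisions, had the widest gap, with a log2 difference in response of -1.36 ± 0.55, adjusted p = 0.598.

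In Col of the tcp set, mitotic genes were higher under submergence. Of 20 M class genes 18 were higher and none lower, 4 of 11 S class genes and 2 of 12 G1 class genes were higher, and the inhibitor KRP1 fell. Over the list, 24 genes were higher and 1 lower, beside 27.1% and 22.9% of the 20385 genes tested. The median log2 fold change was 1.16 in the M class, 0.20 in the S class and 0.00 in the G1 class, and 0.04 over all genes. Summed over the 20 M class genes, the level was 115 ± 7.25 CPM in submerged Col and 47.9 ± 1.19 CPM in mock Col (SD, n = 3 each). Of the 18 rises, 16 held when each library was left out in turn. Without mock Col replicate 1, the library with the doubtful genotype field, 24 genes were higher and 1 lower in this comparison, 32 and 1 in mock tcp21 against mock Col, and 15 and 3 in mock tcpq against mock Col. Under submergence the calls among markers were 1 higher and 1 lower of 7 stomatal lineage genes and 1 and 1 of 5 root meristem genes. The other lists had 2 higher and 0 lower of 4 differentiated root genes and 0 and 3 of 4 tested shoot meristem and primordium genes. They summed to 25.6 to 30.5 CPM in submerged Col and 31.3 to 35.6 CPM in mock Col for the stomatal lineage, and 38.6 to 47.3 and 48.6 to 56.8 CPM for the root meristem. Sums for differentiated root were 54.0 to 61.6 CPM in submerged Col and 38.0 to 52.5 CPM in mock Col, and for shoot meristem and primordia 11.8 to 14.8 and 24.0 to 26.1 CPM. Their part in the rise of the M class was not tested.

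CDKB2;2, a mitotic kinase, had the smallest adjusted p, with 8.96, 9.83 and 10.5 CPM in submerged Col, against 2.62, 3.50 and 3.08 CPM in mock Col (log2 fold change 1.68 ± 0.15, adjusted p = 3.74e-10). KNOLLE, the syntaxin of the cell plate, had 9.25, 9.77 and 8.39 CPM in submerged Col, against 2.40, 1.92 and 2.56 CPM in mock Col (log2 fold change 1.99 ± 0.19, adjusted p = 1.00e-09). CDC20.1 had 14.9, 14.5 and 13.8 CPM in submerged Col, against 4.81, 4.76 and 4.23 CPM in mock Col (log2 fold change 1.65 ± 0.20, adjusted p = 3.74e-07). None of these groups overlapped, and CDKB1;1, the kinase of the G2 to M passage, changed most, by 2.02 ± 0.27, adjusted p = 4.37e-07. Reads of CDC20.1 are uncertain, since 31.4% of its 50-base stretches also lie in CDC20.2, and 33.5% of the exon bases of KNOLLE and 13.8% of those of CDKB2;2 overlap a gene on the other strand. CYCA1;1 and CYCB1;1 were the M class genes that missed the test, with log2 fold changes of 0.32 ± 0.25, adjusted p = 0.296 and 0.82 ± 0.39, adjusted p = 0.0812.

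The S class split in this comparison. PCNA2, the other clamp gene, had 17.2, 18.5 and 14.0 CPM in submerged Col, against 8.76, 10.9 and 9.56 CPM in mock Col (log2 fold change 0.77 ± 0.14, adjusted p = 2.70e-05). Of the exon bases of PCNA2, 23.6% overlap a gene on the other strand. The remaining rises were those of CDT1A (0.91 ± 0.20, adjusted p = 3.42e-04), PCNA1 (0.84 ± 0.22, adjusted p = 0.00187) and TSO2 (0.53 ± 0.11, adjusted p = 3.33e-04). None of the 6 MCM genes passed the test, with log2 fold changes between -0.22 for MCM7 and 0.41 for MCM6. In the G1 class E2FB had 9.53, 9.88 and 7.65 CPM in submerged Col, against 3.60, 4.597 and 5.48 CPM in mock Col (log2 fold change 0.99 ± 0.17, adjusted p = 1.67e-05). CYCD3;2 was called at 0.24 ± 0.08, adjusted p = 0.0166, and the call was lost without mock Col replicate 1 or submerged Col replicate 1, with adjusted p of up to 0.0787. KRP1, the inhibitor that fell, had 5.99, 6.30 and 9.91 CPM in submerged Col, against 14.7, 12.6 and 17.3 CPM in mock Col (log2 fold change -1.01 ± 0.17, adjusted p = 1.31e-05).

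Both Col controls were submerged, and 13 genes of the list were called in opposite directions. Of 47 genes, 13 were lower under submergence in the bak set and higher in the tcp set, 12 were lower in the bak set and not called in the tcp set, 10 were not called in the bak set and higher in the tcp set, 1 (E2FB) was higher in both, none was lower in both, 10 were called in neither, and 1 (KRP1) was not called in the bak set and lower in the tcp set. The sets share no library and were fitted apart, so the difference was not tested. Taken alone, 24.1% of all genes tested were lower in the bak set and 27.1% were higher in the tcp set. The share of all genes called in opposite directions was not counted, so whether this list stands out from genes in general is not shown. After submergence the sums for the M class were 253 ± 59.6 CPM in the bak set and 115 ± 7.25 CPM in the tcp set, while in mock Col they were 346 ± 21.6 and 47.9 ± 1.19 CPM. The labels give both sets the same age and treatment words. Seed storage transcripts, as above, were high in submerged Col of the bak set and in 1 mock Col library of that set. Their part in this result was not tested.

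**Figure D3:**
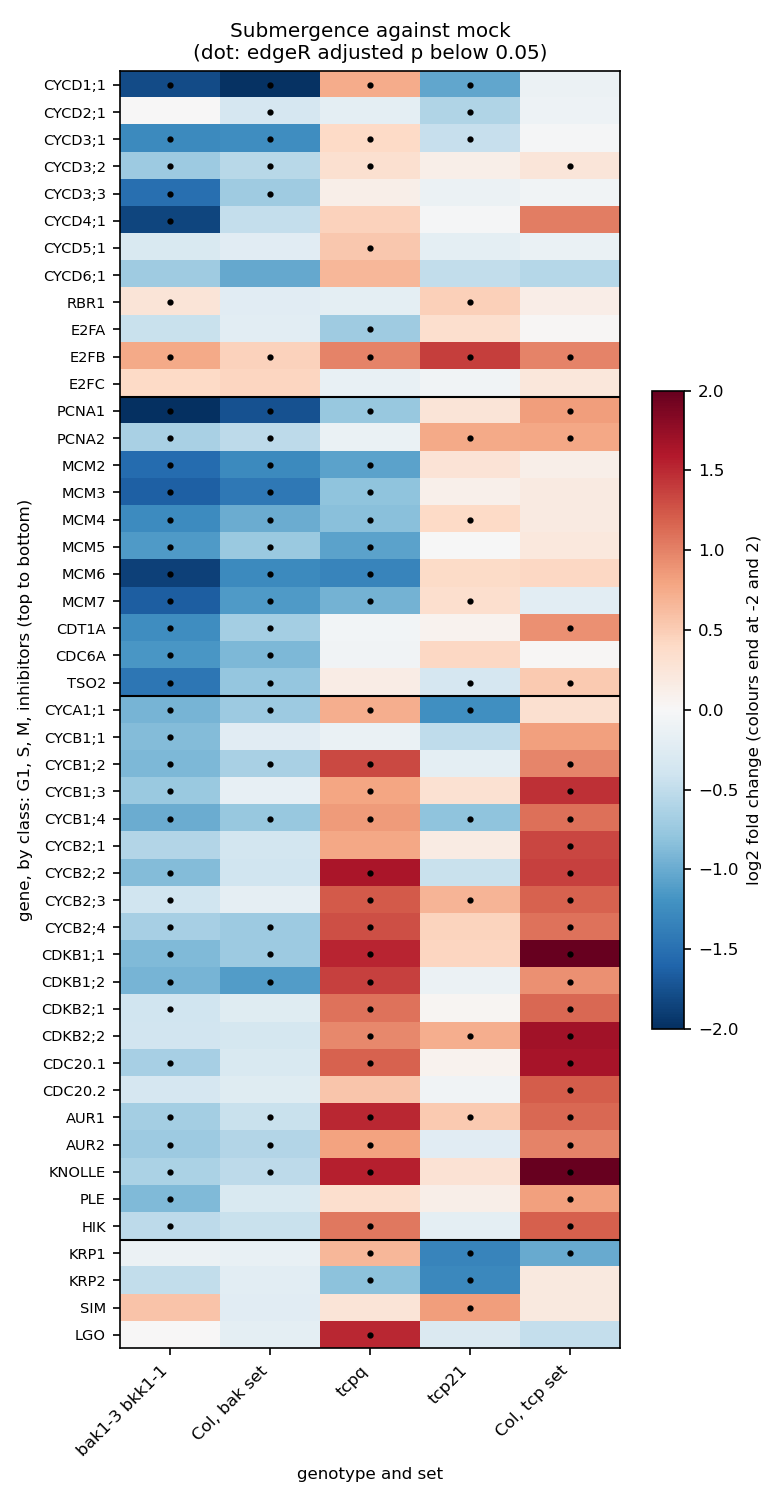
Log2 fold change of submergence against mock for the 47 genes (rows, in class order) in 5 genotypes (columns; bak1-3 bkk1-1 and Col of the bak set, then tcpq, tcp21 and Col of the tcp set); black dots mark an edgeR adjusted p below 0.05. The S class is blue and dotted in all 11 rows of both bak columns, the M class is red in Col of the tcp set (18 of 20 called) and in tcpq (16 of 20 called), and E2FB is red and dotted in all 5 columns.

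Mitotic genes were higher in mock tcp21 than in mock Col. Of 20 M class genes 19 were higher and none lower, with a median log2 fold change of 1.45, and all 19 calls held when each library was left out in turn. In the S class 6 of 11 were higher (median 0.45), in the G1 class 4 of 12 were higher, and of the inhibitors KRP2 was higher and KRP1 lower. In all 30 of 47 genes were higher and 1 lower, beside 23.8% and 23.0% of all genes. The M class summed to 130.5 ± 6.21 CPM in mock tcp21 and 47.9 ± 1.19 CPM in mock Col. CYCB2;1 was the M class gene without a call, at 0.84 ± 0.45, adjusted p = 0.126.

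CYCB1;4, a mitotic cyclin, changed most, with 8.89, 6.45 and 4.59 CPM in mock tcp21, against 1.60, 1.42 and 1.51 CPM in mock Col (log2 fold change 2.14 ± 0.26, adjusted p = 9.56e-08). KNOLLE had 6.70, 9.81 and 9.35 CPM in mock tcp21, against 2.40, 1.92 and 2.56 CPM in mock Col (log2 fold change 1.89 ± 0.19, adjusted p = 3.52e-09). HIK, the cytokinetic kinesin, had 12.9, 7.73 and 8.63 CPM in mock tcp21, against 2.05, 2.85 and 3.29 CPM in mock Col (log2 fold change 1.86 ± 0.23, adjusted p = 2.68e-07). The mock tcp21 libraries lay above every mock Col library in each of these genes. Among the replication genes CDT1A had 11.03, 12.1 and 7.75 CPM in mock tcp21, against 4.27, 3.89 and 3.03 CPM in mock Col (log2 fold change 1.47 ± 0.19, adjusted p = 3.03e-07). TSO2, also of the S class, changed by 1.21 ± 0.11, adjusted p = 7.07e-10. CYCD1;1 had 25.7, 24.0 and 24.7 CPM in mock tcp21, against 16.0, 12.1 and 13.1 CPM in mock Col (log2 fold change 0.85 ± 0.12, adjusted p = 1.56e-06). KRP1 had 6.73, 8.53 and 7.69 CPM in mock tcp21, against 14.7, 12.6 and 17.3 CPM in mock Col (log2 fold change -0.96 ± 0.17, adjusted p = 2.58e-05), so the groups did not overlap and the inhibitor was lower in tcp21.

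Markers of other cell types moved in the same comparison. Of the lists of markers, 5 of 7 stomatal lineage genes, 4 of 4 genes of differentiated root cells and 2 of 5 root meristem genes were higher in mock tcp21 than in mock Col and none was lower. Summed levels were 46.7 to 58.5 CPM in mock tcp21 and 31.3 to 35.6 CPM in mock Col for the stomatal lineage, 97.1 to 104 and 48.6 to 56.8 CPM for the root meristem, and 92.6 to 104 and 38.0 to 52.5 CPM for differentiated root. Within the root meristem sum, SCR had 87.4, 85.4 and 77.6 CPM in mock tcp21 and 43.5, 37.6 and 34.8 CPM in mock Col. PLT1, PLT2 and WOX5 each had at most 1.57 CPM in these libraries. The part of the marker lists in the rise of the M class was not tested. Of the 6 shoot meristem and primordium genes, WUS and CLV3 were at or near 0 in every library and none of the 4 tested was called, with sums of 26.5 to 34.0 CPM in mock tcp21 and 24.0 to 26.1 CPM in mock Col.

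In tcp21 the summed level of the mitotic genes lay close together in submerged and mock seedlings. The M class summed to 134 ± 12.6 CPM in submerged tcp21 and 130.5 ± 6.21 CPM in mock tcp21, and its median log2 fold change was 0.06, with 3 genes higher and 2 lower. In total 9 genes were higher and 8 lower, beside 24.1% and 24.7% of all genes, so the list was called no more often than genes in general. E2FB had the largest rise, at 9.21, 12.3 and 11.4 CPM in submerged tcp21, against 3.55, 4.37 and 4.81 CPM in mock tcp21 (log2 fold change 1.38 ± 0.17, adjusted p = 4.91e-08). CYCA1;1, an A-type cyclin, fell, with 3.06, 4.33 and 2.85 CPM in submerged tcp21, against 7.94, 7.39 and 8.80 CPM in mock tcp21 (log2 fold change -1.23 ± 0.22, adjusted p = 3.35e-05). CYCB1;4 was called lower as well (-0.81 ± 0.24, adjusted p = 0.00555), and the call was lost without mock tcp21 replicate 1, with adjusted p of up to 0.0814. CYCB2;3 (0.68 ± 0.18, adjusted p = 0.00241) and CDKB2;2 (0.72 ± 0.14, adjusted p = 1.01e-04) rose; AUR1 was called at 0.53 ± 0.18, adjusted p = 0.0165, and the call was lost without mock tcp21 replicate 2, submerged tcp21 replicate 2 or submerged tcp21 replicate 3, with adjusted p of up to 0.0724.

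The remaining calls in tcp21 ran both ways within each class. CYCD1;1 fell to 12.5, 13.5 and 10.4 CPM in submerged tcp21, against 25.7, 24.0 and 24.7 CPM in mock tcp21 (log2 fold change -1.03 ± 0.12, adjusted p = 4.10e-08), and CYCD2;1 (-0.61) and CYCD3;1 (-0.47) fell with it, while RBR1 rose (0.47 ± 0.09, adjusted p = 5.19e-05). PCNA2 was higher (0.76 ± 0.14, adjusted p = 2.69e-05), as it was in Col. TSO2 was called lower (-0.34 ± 0.11, adjusted p = 0.0109), and the call was lost without mock tcp21 replicate 2, with adjusted p of up to 0.0574. Of the inhibitors, KRP1 had 3.19, 3.11 and 2.85 CPM in submerged tcp21, against 6.73, 8.53 and 7.69 CPM in mock tcp21 (log2 fold change -1.32 ± 0.19, adjusted p = 1.13e-06). KRP2 had 3.59, 3.16 and 1.58 CPM in submerged tcp21, against 6.52, 7.22 and 6.92 CPM in mock tcp21 (log2 fold change -1.29 ± 0.21, adjusted p = 9.85e-06). SIM, which promotes endoreduplication in trichomes, had 2.44, 2.65 and 2.75 CPM in submerged tcp21, against 1.36, 1.40 and 1.66 CPM in mock tcp21 (log2 fold change 0.83 ± 0.27, adjusted p = 0.0115); 31.4% of its exon bases overlap a gene on the other strand. In this comparison calls among markers were 0 higher and 6 lower of 7 stomatal lineage genes and 1 and 1 of 5 root meristem genes. There were also 0 higher and 2 lower of 4 differentiated root genes and 0 and 3 of 4 tested shoot meristem and primordium genes. Summed, they had 27.1 to 28.6 CPM in submerged tcp21 and 46.7 to 58.5 CPM in mock tcp21 for the stomatal lineage, and 50.9 to 57.7 and 97.1 to 104 CPM for the root meristem. Within the root meristem list, SCR had 33.4, 38.2 and 36.8 CPM in submerged tcp21 and 87.4, 85.4 and 77.6 CPM in mock tcp21. WOX5 went the other way, with 1.02, 1.22 and 1.21 CPM in submerged tcp21 and 0.346, 0.127 and 0.332 CPM in mock tcp21. Differentiated root genes summed to 76.3 to 91.0 CPM in submerged tcp21 and 92.6 to 104 CPM in mock tcp21, and shoot meristem and primordium genes to 15.1 to 16.8 and 26.5 to 34.0 CPM. Their part was not tested.

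The test of the difference in response between tcp21 and Col called 19 genes lower and 2 higher, beside 16.3% and 14.7% of all genes. In the M class 13 of 20 had a lower response in tcp21 than in Col (median log2 difference -1.19) and 12 of these held without each library in turn. In the same difference the calls among markers were 0 higher and 4 lower of 7 stomatal lineage genes and 0 and 1 of 5 root meristem genes. Beside these were 0 higher and 3 lower of 4 differentiated root genes and 0 and 0 of 4 tested shoot meristem and primordium genes, and their part was not tested. CYCB1;4 had the largest difference, -1.90 ± 0.36, adjusted p = 1.58e-04. Its level was 4.69, 3.16 and 3.64 CPM in submerged tcp21, against 8.89, 6.45 and 4.59 CPM in mock tcp21, and it was 3.94, 3.17 and 2.60 CPM in submerged Col, against 1.60, 1.42 and 1.51 CPM in mock Col. CYCB2;2 followed at -1.82 ± 0.37, adjusted p = 3.12e-04 and KNOLLE at -1.71 ± 0.26, adjusted p = 6.82e-06. Mock tcp21 and mock Col enter this difference as well as the comparison of the mock groups, so the 2 share libraries, and each is given for its own values. When both genotypes were submerged, 10 genes were higher in tcp21 than in Col and 2 lower, beside 12.3% and 14.4%. The count of 12 called genes fell to 6 without submerged Col replicate 3 and to 7 without submerged tcp21 replicate 2. Calls over all genes fell too, from 2508 higher and 2932 lower to 1562 and 1712 without the first library. Without the second they were 2168 and 2159. The inhibitor KRP1 had 3.19, 3.11 and 2.85 CPM in submerged tcp21, against 5.99, 6.30 and 9.91 CPM in submerged Col (log2 fold change -1.27 ± 0.19, adjusted p = 2.26e-05). It was lower together with KRP2 (-0.87 ± 0.22, adjusted p = 0.00399). Of the higher genes 7 belonged to the S class, 2 to the G1 class and 1 to the M class. When each library was left out in turn, 3 of the S class calls held, and 0 in the G1 and M classes. The 2 lower calls held. Between these submerged groups the calls among markers were 1 higher and 0 lower of 7 stomatal lineage genes and 2 and 0 of 5 root meristem genes. The other lists had 2 higher and 0 lower of 4 differentiated root genes and 0 and 0 of 4 tested shoot meristem and primordium genes, and their part was not tested.

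In mock tcpq it was the replication genes that stood above Col. Of 11 S class genes 10 were higher and none lower, with a median log2 fold change of 1.22, and all 10 calls held when each library was left out. The M class median was 0.20, and its calls, 5 higher and 1 lower, were each lost without at least 1 library. Over the list 20 genes were higher and 4 lower, beside 25.8% and 22.6% of all genes. The S class summed to 174 ± 18.7 CPM in mock tcpq and 82.5 ± 3.32 CPM in mock Col, and the M class to 55.9 ± 8.27 and 47.9 ± 1.19 CPM. The mean log2 level of the S class minus that of the M class was 2.51 ± 0.11 in mock tcpq and 1.62 ± 0.07 in mock Col (SD, n = 3 each), and no other of the 10 groups had as wide a gap as mock tcpq.

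MCM6 changed most, with 12.9, 10.8 and 10.5 CPM in mock tcpq, against 3.56, 3.78 and 2.77 CPM in mock Col (log2 fold change 1.76 ± 0.21, adjusted p = 3.03e-08). CDT1A, which loads the helicase, had 11.99, 7.94 and 11.4 CPM in mock tcpq, against 4.27, 3.89 and 3.03 CPM in mock Col (log2 fold change 1.48 ± 0.19, adjusted p = 1.88e-07). PCNA1 had 10.4, 7.33 and 9.46 CPM in mock tcpq, against 2.76, 4.16 and 3.08 CPM in mock Col (log2 fold change 1.45 ± 0.21, adjusted p = 1.15e-06). In all 3 genes the mock tcpq libraries lay above the mock Col libraries, and CDC6A was the S class gene without a call, at -0.08 ± 0.25, adjusted p = 0.820. E2FA, an activator of replication genes, rose with them, at 5.98, 5.32 and 5.68 CPM in mock tcpq, against 3.60, 2.08 and 2.19 CPM in mock Col (log2 fold change 1.09 ± 0.23, adjusted p = 2.90e-04), and so did RBR1 (0.46 ± 0.09, adjusted p = 6.85e-05) and E2FC (0.55 ± 0.18, adjusted p = 0.0109). CYCD1;1 went the other way, with 5.90, 5.18 and 4.59 CPM in mock tcpq, against 16.0, 12.1 and 13.1 CPM in mock Col (log2 fold change -1.39 ± 0.14, adjusted p = 8.27e-10).

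Further calls against the direction of their class were few. CYCD3;1 was called lower (-0.38 ± 0.12, adjusted p = 0.0107), and the call was lost without mock tcpq replicate 2, with adjusted p of up to 0.0717. AUR1, an Aurora kinase of the mitotic spindle, was the M class gene called lower (-0.53 ± 0.21, adjusted p = 0.0357), and the call was lost without mock Col replicate 1, mock Col replicate 2, mock tcpq replicate 1 or mock tcpq replicate 3, with adjusted p of up to 0.104. KRP1 had 5.21, 4.72 and 4.33 CPM in mock tcpq, against 14.7, 12.6 and 17.3 CPM in mock Col (log2 fold change -1.64 ± 0.18, adjusted p = 5.37e-09), while KRP2 was higher (0.64 ± 0.21, adjusted p = 0.0106). Of the marker lists, 4 of 7 stomatal lineage genes and 3 of 5 root meristem genes were higher in mock tcpq and none lower, with summed levels of 55.6 to 59.6 CPM in mock tcpq and 31.3 to 35.6 CPM in mock Col for the stomatal lineage, and 65.8 to 68.5 and 48.6 to 56.8 CPM for the root meristem. Of 4 differentiated root genes 2 were higher and 1 lower, and of 4 tested shoot meristem and primordium genes 1 was higher. Differentiated root summed to 52.0 to 65.1 CPM in mock tcpq and 38.0 to 52.5 CPM in mock Col, and shoot meristem and primordia to 35.02 to 37.2 and 24.0 to 26.1 CPM. The part of these markers in the rise of the S class was not tested.

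**Figure D4:**
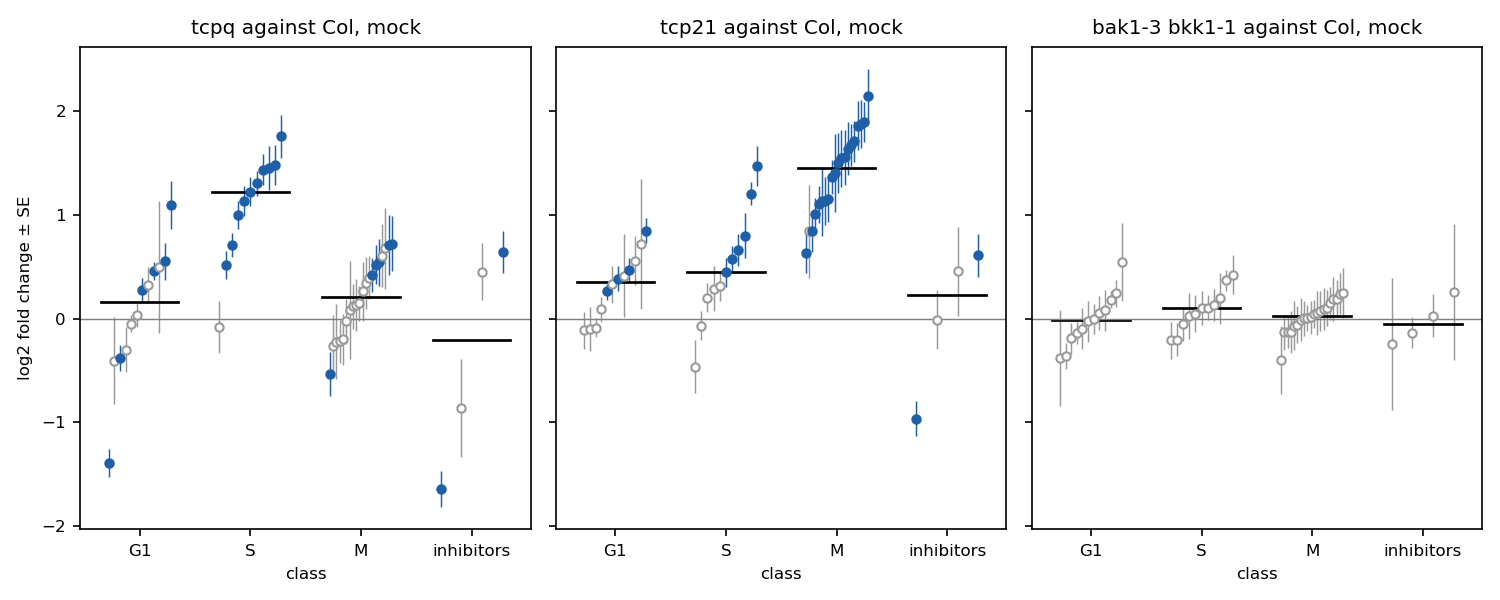
Log2 fold change ± SE of each gene in mock seedlings for tcpq, tcp21 and bak1-3 bkk1-1 against the Col of their set, by class; filled blue points passed an edgeR adjusted p below 0.05, and bars are class medians. The S class stands highest in tcpq (median 1.22), the M class in tcp21 (median 1.45), and no gene passed in bak1-3 bkk1-1.

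Submergence in tcpq moved S and M class genes in opposite directions. Of the S class 7 of 11 fell and none rose (median -0.80), while 16 of 20 M class genes rose and none fell (median 1.07); the G1 class had 5 higher and 1 lower and the inhibitors 2 higher and 1 lower. In all 23 genes were higher and 9 lower, beside 32.8% and 30.6% of all genes. The M class summed to 116 ± 6.23 CPM in submerged tcpq and 55.9 ± 8.27 CPM in mock tcpq, the S class to 116 ± 6.30 and 174 ± 18.7 CPM. The levels of the classes thus came closer. The mean log2 level of the S class minus that of the M class was 0.88 ± 0.08 in submerged tcpq and 2.51 ± 0.11 in mock tcpq. MCM6 had 4.96, 4.14 and 4.54 CPM in submerged tcpq, against 12.9, 10.8 and 10.5 CPM in mock tcpq (log2 fold change -1.33 ± 0.20, adjusted p = 1.34e-06). All 6 MCM genes fell, together with PCNA1 (-0.75 ± 0.20, adjusted p = 0.00180). CYCB1;2 had 9.13, 9.37 and 7.65 CPM in submerged tcpq, against 3.35, 2.85 and 4.21 CPM in mock tcpq (log2 fold change 1.32 ± 0.20, adjusted p = 1.16e-06). CYCB2;2, a mitotic cyclin, changed most of the M class (1.64 ± 0.27, adjusted p = 6.34e-06).

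CYCD1;1 had 8.27, 8.91 and 8.96 CPM in submerged tcpq, against 5.90, 5.18 and 4.59 CPM in mock tcpq (log2 fold change 0.74 ± 0.14, adjusted p = 4.00e-05), and E2FB again rose (0.99 ± 0.16, adjusted p = 5.04e-06). E2FA was called lower (-0.72 ± 0.23, adjusted p = 0.00799), and the call was lost without submerged tcpq replicate 1, with adjusted p of up to 0.0564. KRP1 had 6.86, 7.13 and 8.49 CPM in submerged tcpq, against 5.21, 4.72 and 4.33 CPM in mock tcpq (log2 fold change 0.66 ± 0.18, adjusted p = 0.00229). LGO, another promoter of endoreduplication, had 2.39, 1.84 and 1.18 CPM in submerged tcpq, against 0.947, 0.560 and 0.337 CPM in mock tcpq (log2 fold change 1.501 ± 0.46, adjusted p = 0.00534); 40.3% of its exon bases overlap a gene on the other strand. KRP2 fell, at 4.10, 4.19 and 3.70 CPM in submerged tcpq, against 6.08, 7.75 and 7.28 CPM in mock tcpq (log2 fold change -0.82 ± 0.21, adjusted p = 0.00120). Beside these values the calls among markers were 0 higher and 4 lower of 7 stomatal lineage genes and 1 and 1 of 5 root meristem genes. There were also 2 higher and 0 lower of 4 differentiated root genes and 0 and 3 of 4 tested shoot meristem and primordium genes. Marker sums were 19.97 to 21.0 CPM in submerged tcpq and 55.6 to 59.6 CPM in mock tcpq for the stomatal lineage, and 54.8 to 56.5 and 65.8 to 68.5 CPM for the root meristem. Sums for differentiated root were 83.5 to 95.3 CPM in submerged tcpq and 52.0 to 65.1 CPM in mock tcpq, and for shoot meristem and primordia 19.4 to 21.9 and 35.02 to 37.2 CPM. Their part was not tested.

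The test of the difference in response between tcpq and Col called 12 genes lower and 3 higher, beside 17.1% and 17.5% of all genes. Of the 12 lower ones 9 belonged to the S class, where the median log2 difference was -0.98 and all 9 calls held without each library in turn; in the M class CDKB2;2 was the called gene (-0.71 ± 0.22, adjusted p = 0.00995). Calls among markers in the same difference were 0 higher and 4 lower of 7 stomatal lineage genes and 0 and 0 of 5 root meristem genes. Beside these were 1 higher and 0 lower of 4 differentiated root genes and 0 and 0 of 4 tested shoot meristem and primordium genes, and their part was not tested. MCM6 had the largest S class difference (-1.74 ± 0.30, adjusted p = 2.59e-05) and PCNA1 followed (-1.59 ± 0.29, adjusted p = 8.58e-05). Mock tcpq and mock Col enter this test as well as the comparison of the mock groups, and mock tcpq also enters the fall of the S class in tcpq. These results therefore share libraries, and each is given for its own values. KRP1 (1.67 ± 0.25, adjusted p = 3.86e-06) and CYCD1;1 (0.85 ± 0.19, adjusted p = 6.47e-04) had a higher response in tcpq. LGO was called at 1.98 ± 0.65, adjusted p = 0.0176, and the call was lost without mock Col replicate 1, mock tcpq replicate 3 or submerged tcpq replicate 1, with adjusted p of up to 0.125. Under submergence 2 genes were higher and 2 lower in tcpq than in Col, beside 8.70% and 7.82% of all genes. Calls among markers here were 0 higher and 1 lower of 7 stomatal lineage genes and 3 and 0 of 5 root meristem genes. The other lists had 2 higher and 0 lower of 4 differentiated root genes and 1 and 0 of 4 tested shoot meristem and primordium genes.

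These 4 were CYCD1;1, PCNA2, CDT1A and TSO2. CYCD1;1 had 8.27, 8.91 and 8.96 CPM in submerged tcpq, against 12.9, 11.6 and 13.5 CPM in submerged Col (log2 fold change -0.54 ± 0.13, adjusted p = 0.00430), and no single library decided its call. PCNA2 (-0.38 ± 0.13, adjusted p = 0.0490) was lower, and the call was lost without submerged Col replicate 1, submerged Col replicate 2, submerged tcpq replicate 1 or submerged tcpq replicate 3, with adjusted p of up to 0.201. CDT1A was higher (0.52 ± 0.18, adjusted p = 0.0465), and the call was lost without submerged Col replicate 1, submerged Col replicate 2, submerged Col replicate 3, submerged tcpq replicate 2 or submerged tcpq replicate 3, with adjusted p of up to 0.216. TSO2 was higher as well (0.34 ± 0.11, adjusted p = 0.0352), and the call was lost without submerged Col replicate 2, submerged Col replicate 3, submerged tcpq replicate 1 or submerged tcpq replicate 2, with adjusted p of up to 0.181.

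**Figure D5:**
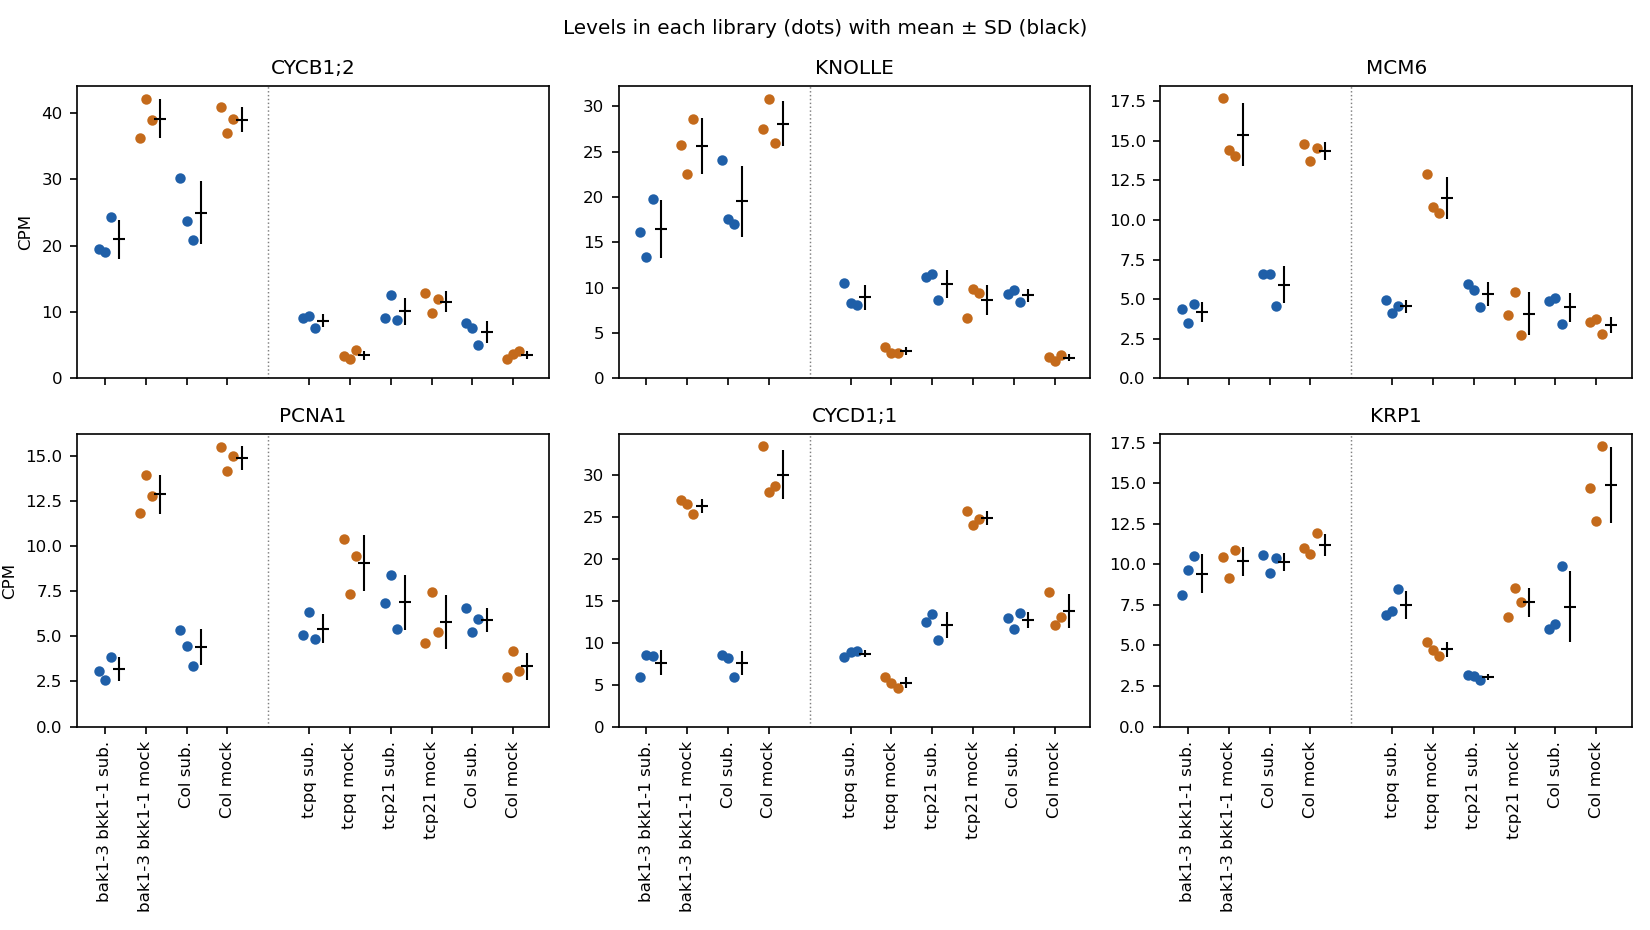
CPM in each library for 6 genes (points; blue submerged, orange mock; black, mean ± SD of 3 libraries), with the bak set left of the dotted line. CYCB1;2 and KNOLLE are high in mock tcp21 but low in mock tcpq and mock Col of the tcp set, and among the groups of the tcp set MCM6 and PCNA1 are highest and CYCD1;1 is lowest in mock tcpq, while KRP1 is highest in mock Col.

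Set against each other in mock, tcpq and tcp21 differed by class. Of the M class 18 of 20 genes were lower in tcpq and none higher (median log2 fold change -1.19), of the S class 8 were higher and 1 lower (median 0.73), and the G1 class had 3 higher and 3 lower. Over the list 11 genes were higher and 24 lower, beside 25.8% and 26.6% of all genes. CYCD1;1 had the largest gap, with 5.90, 5.18 and 4.59 CPM in mock tcpq, against 25.7, 24.0 and 24.7 CPM in mock tcp21 (log2 fold change -2.24 ± 0.13, adjusted p = 1.85e-14). CYCB1;4 had 1.71, 1.87 and 1.89 CPM in mock tcpq, against 8.89, 6.45 and 4.59 CPM in mock tcp21 (log2 fold change -1.88 ± 0.25, adjusted p = 2.73e-07). MCM6 had 12.9, 10.8 and 10.5 CPM in mock tcpq, against 3.98, 5.48 and 2.77 CPM in mock tcp21 (log2 fold change 1.47 ± 0.20, adjusted p = 3.25e-07). TSO2 was the S class gene lower in tcpq (-0.49 ± 0.11, adjusted p = 3.24e-04). Calls among markers in mock tcpq against mock tcp21 were 1 higher and 3 lower of 7 stomatal lineage genes and 0 and 1 of 5 root meristem genes. There were also 0 higher and 2 lower of 4 differentiated root genes and 1 and 0 of 4 tested shoot meristem and primordium genes. They had sums of 55.6 to 59.6 CPM in mock tcpq and 46.7 to 58.5 CPM in mock tcp21 for the stomatal lineage, and 65.8 to 68.5 and 97.1 to 104 CPM for the root meristem. Differentiated root genes summed to 52.0 to 65.1 CPM in mock tcpq and 92.6 to 104 CPM in mock tcp21, and shoot meristem and primordium genes to 35.02 to 37.2 and 26.5 to 34.0 CPM. Their part in the differences of the M and S classes was not tested.

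Fewer genes were called between tcpq and tcp21 after submergence. Fitted alone, the compared groups gave 8 calls, with 2152 higher and 1782 lower over all genes in place of 1648 and 1108. In the main fit 1 gene was higher and 3 were lower in tcpq than in tcp21, beside 8.08% and 5.44% of all genes. KRP1 was the higher gene, with 6.86, 7.13 and 8.49 CPM in submerged tcpq, against 3.19, 3.11 and 2.85 CPM in submerged tcp21 (log2 fold change 1.2997 ± 0.19, adjusted p = 4.06e-05). MCM2 was lower (-0.58 ± 0.15, adjusted p = 0.00943). CYCD1;1 (-0.47 ± 0.13, adjusted p = 0.0169) and MCM7 (-0.47 ± 0.14, adjusted p = 0.0239) were called lower too; for CYCD1;1 the call was lost without submerged tcp21 replicate 2 or submerged tcpq replicate 1, with adjusted p of up to 0.0673, and for MCM7 the call was lost without submerged tcp21 replicate 3, submerged tcpq replicate 2 or submerged tcpq replicate 3, with adjusted p of up to 0.0980. The M class sums were 116 ± 6.23 CPM in submerged tcpq, 134 ± 12.6 CPM in submerged tcp21 and 115 ± 7.25 CPM in submerged Col. Among markers the calls were 0 higher and 2 lower of 7 stomatal lineage genes and 0 and 0 of 5 root meristem genes. Beside these were 0 higher and 0 lower of 4 differentiated root genes and 1 and 0 of 4 tested shoot meristem and primordium genes, and their part was not tested.

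Other genes of the pathway, 93 listed by role, were counted the same way. In Col of the bak set 10 higher and 32 lower of 89 tested were called, in bak1-3 bkk1-1 12 higher and 46 lower of 89 tested, in Col of the tcp set 36 higher and 7 lower of 88 tested, in tcp21 18 higher and 5 lower of 88 tested and in tcpq 34 higher and 19 lower of 88 tested, each beside the background of its comparison given above. For the other M class genes the counts were 21 higher and 0 lower of 33 tested in Col of the tcp set and 7 higher and 2 lower of 33 tested in tcp21, and in mock tcp21 against mock Col 15 higher and 2 lower of 33 tested. For the other S class genes they were 2 higher and 15 lower of 33 tested in Col of the bak set, 6 higher and 13 lower of 32 tested in tcpq under submergence, and 15 higher and 5 lower of 32 tested in mock tcpq against mock Col. No other gene was called between bak1-3 bkk1-1 and Col in either treatment or in their responses (0 of 89 each).

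RNR1, the large subunit of ribonucleotide reductase, had the smallest adjusted p of these other genes in 3 of the 5 submergence responses, and it fell in each: in Col of the bak set (-1.21 ± 0.12, adjusted p = 1.15e-07), in bak1-3 bkk1-1 (-1.51 ± 0.12, adjusted p = 7.73e-09) and in tcpq (-1.55 ± 0.11, adjusted p = 2.06e-13). AT5G65360, a gene for histone H3.1, the replication form of histone H3, fell in Col of the bak set (-0.86 ± 0.10, adjusted p = 8.28e-07) and rose in Col of the tcp set (0.92 ± 0.10, adjusted p = 5.88e-09), in tcp21 (0.45 ± 0.10, adjusted p = 2.62e-04) and in tcpq (1.09 ± 0.10, adjusted p = 9.36e-11). In tcpq the transcript of this histone H3.1 gene thus went up where the MCM genes and LIG1, the DNA ligase of replication (-1.12 ± 0.10, adjusted p = 3.11e-11), went down. How far the sequence of AT5G65360 is shared with other genes was not examined. TPX2, a spindle assembly factor (1.58 ± 0.22, adjusted p = 6.42e-07), and POK2, a kinesin of the division plane (1.09 ± 0.14, adjusted p = 3.32e-07), rose with the M class in Col of the tcp set. The inhibitor KRP6 rose in Col of the tcp set (1.03 ± 0.13, adjusted p = 2.28e-07) and in tcpq (1.97 ± 0.14, adjusted p = 6.81e-13). In tcp21 another A-type cyclin, CYCA1;2, rose (2.52 ± 0.27, adjusted p = 3.98e-09) where CYCA1;1 fell.

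Some values are uncertain because of how genes lie in the genome. In the TAIR10.1 annotation 17 of the 47 genes overlap a gene on the other strand, 9 of them over more than 10% of their exon bases, the most being LGO (40.3%) and AUR2 (36.9%), and whether counting used strand is not stated in the labels. Of 50-base stretches, 33.2% of those of CDC20.2 lie also in CDC20.1, 17.3% of those of CYCB2;3 also in AT1G20590, and 11.2% of those of CYCB1;2 also in another gene.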

How the data were processed

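Poly-A RNA-seq of 30 libraries of Arabidopsis whole seedlings was analysed from 2 tables of raw counts per gene, which the authors deposited as whole numbers without normalization, 1 table for each set. Reads were trimmed with fastp 0.23.1 and aligned with STAR 2.7.9a to build TAIR10, per the submitters' processing notes; what counted the reads, with which strand setting and annotation, is not given in the sources used here. The counts of each set were fitted apart in edgeR 4.0.16 (R 4.3.3) with filterByExpr, which kept 20666 and 20385 of 32833 genes, TMM factors (0.904 to 1.18) and robust quasi-likelihood F tests on group means of all groups of a set. P-values were adjusted by Benjamini-Hochberg over all genes tested, with a threshold of 0.05. The SE is the absolute log2 fold change over the square root of F, and CPM are computed from the deposited counts and TMM library sizes. The procedure was tested on simulated data.

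The members, classes, pathway and marker lists were chosen with earlier results of these data known. Values in every library are given for the members with the smallest adjusted p per class in either Col response and for members called in a difference of responses. They are also given for some of the members called against their class. Others, such as AUR1 and CYCD3;1 in mock tcpq, are given there by fold change only. Calls of other pathway genes are named among the 6 with the smallest adjusted p per submergence response. Alternatives were DESeq2 1.42.0, RLE factors, no filter, the compared groups fitted alone, organelle genes left out, a replicate block and each library left out. The replicates of a group differed by more than sampling noise in every case (chi-square per gene 3.50 to 28.0). All 47 promoter windows were found through the RefSeq annotation, and exon lengths come from the same annotation.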

Additional observations from a re-analysis of the deposited data

Results flagged for a closer look

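The response to submergence, as the log2 fold change of submerged over mock, differed between a mutant and Col of the tcp set in 36 tests of a member by edgeR, 21 for tcp21 and 15 for tcpq, beside the shares of all genes given above. A negative difference means a lower response in the mutant. Both sets of differences use the same Col libraries and are given side by side. In the G1 class 4 genes differed for tcp21. CYCD1;1, a D-type cyclin, had 12.5, 13.5 and 10.4 CPM in submerged tcp21 and 25.7, 24.0 and 24.7 CPM in mock tcp21. In Col, CYCD1;1 had 12.9, 11.6 and 13.5 CPM in submerged and 16.0, 12.1 and 13.1 CPM in mock libraries. The response of CYCD1;1 differed by -0.92 ± 0.18, adjusted p = 1.93e-04. CYCD2;1, a D-type cyclin, had 14.2, 12.1 and 11.2 CPM in submerged tcp21 and 18.0, 20.21 and 19.0 CPM in mock tcp21. In Col, CYCD2;1 had 13.9, 10.98 and 13.3 CPM in submerged and 13.2, 13.0 and 15.1 CPM in mock libraries. The response of CYCD2;1 differed by -0.50 ± 0.16, adjusted p = 0.0209; the call was lost without submerged Col replicate 1, mock tcp21 replicate 2, submerged tcp21 replicate 2 or submerged tcp21 replicate 3, with adjusted p of up to 0.0713. CYCD3;1, a D-type cyclin, had 13.2, 12.8 and 11.7 CPM in submerged tcp21 and 16.6, 16.4 and 19.3 CPM in mock tcp21. In Col, CYCD3;1 had 14.0, 13.8 and 11.6 CPM in submerged and 13.6, 13.2 and 13.2 CPM in mock libraries. The response of CYCD3;1 differed by -0.45 ± 0.17, adjusted p = 0.0458; the call was lost without mock Col replicate 1, mock Col replicate 2, mock Col replicate 3, submerged Col replicate 1, submerged Col replicate 2, mock tcp21 replicate 2, mock tcp21 replicate 3, submerged tcp21 replicate 1, submerged tcp21 replicate 2 or submerged tcp21 replicate 3, with adjusted p of up to 0.116. For CYCD1;1, CYCD2;1 and CYCD3;1 the submerged libraries, set against the mock libraries, in tcp21 lay below them in 3 of 3, and in Col overlapped with them in 3. RBR1, the E2F-binding repressor, had 54.6, 54.6 and 59.2 CPM in submerged tcp21 and 37.6, 45.05 and 38.7 CPM in mock tcp21. In Col, RBR1 had 45.6, 54.5 and 41.7 CPM in submerged and 44.98, 40.2 and 43.8 CPM in mock libraries. The response of RBR1 differed by 0.33 ± 0.12, adjusted p = 0.0414; the call was lost without mock Col replicate 1, mock Col replicate 3, submerged Col replicate 1, submerged Col replicate 3, mock tcp21 replicate 1, mock tcp21 replicate 3 or submerged tcp21 replicate 3, with adjusted p of up to 0.132. For RBR1, in tcp21 the submerged libraries lay above the mock libraries, and in Col the groups overlapped.

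In the S class of tcp21, 1 difference was positive and 2 were negative. MCM7, a helicase subunit, had 15.7, 14.6 and 17.6 CPM in submerged tcp21 and 9.99, 14.6 and 13.8 CPM in mock tcp21. In Col, MCM7 had 10.2, 10.08 and 8.24 CPM in submerged and 11.2, 11.2 and 10.8 CPM in mock libraries. The response of MCM7 differed by 0.55 ± 0.20, adjusted p = 0.0375; the call was lost without mock Col replicate 1, mock Col replicate 2, mock Col replicate 3, submerged Col replicate 3, mock tcp21 replicate 1 or submerged tcp21 replicate 3, with adjusted p of up to 0.124. CDT1A, a licensing factor, had 9.83, 11.9 and 10.9 CPM in submerged tcp21 and 11.03, 12.1 and 7.75 CPM in mock tcp21. In Col, CDT1A had 7.92, 7.46 and 5.64 CPM in submerged and 4.27, 3.89 and 3.03 CPM in mock libraries. The response of CDT1A differed by -0.84 ± 0.26, adjusted p = 0.0150; the call was lost without mock Col replicate 3, submerged Col replicate 1 or mock tcp21 replicate 2, with adjusted p of up to 0.0568. TSO2, the ribonucleotide reductase subunit, had 29.0, 28.7 and 27.3 CPM in submerged tcp21 and 34.6, 38.1 and 34.6 CPM in mock tcp21. In Col, TSO2 had 24.9, 22.2 and 19.97 CPM in submerged and 16.5, 17.3 and 12.7 CPM in mock libraries. The response of TSO2 differed by -0.86 ± 0.16, adjusted p = 9.63e-05. Compared with the mock libraries, submerged libraries of MCM7, CDT1A and TSO2 in tcp21 lay below them in 1 and overlapped with them in 2 of 3, and in Col lay above them in 2 and below them in 1.

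The M class gave 13 negative differences for tcp21. CYCA1;1, an A-type cyclin, had 3.06, 4.33 and 2.85 CPM in submerged tcp21 and 7.94, 7.39 and 8.80 CPM in mock tcp21. In Col, CYCA1;1 had 3.18, 2.82 and 2.16 CPM in submerged and 2.71, 1.37 and 2.40 CPM in mock libraries. The response of CYCA1;1 differed by -1.56 ± 0.34, adjusted p = 6.52e-04. CYCB1;2, a mitotic cyclin, had 9.04, 12.5 and 8.82 CPM in submerged tcp21 and 12.8, 9.85 and 12.01 CPM in mock tcp21. In Col, CYCB1;2 had 8.28, 7.56 and 5.05 CPM in submerged and 2.94, 3.67 and 4.07 CPM in mock libraries. The response of CYCB1;2 differed by -1.18 ± 0.27, adjusted p = 0.00125. CYCB1;3, a mitotic cyclin, had 2.61, 5.05 and 3.43 CPM in submerged tcp21 and 2.57, 3.48 and 2.93 CPM in mock tcp21. In Col, CYCB1;3 had 3.01, 2.57 and 3.09 CPM in submerged and 1.02, 0.985 and 1.15 CPM in mock libraries. The response of CYCB1;3 differed by -1.15 ± 0.39, adjusted p = 0.0234; the call was lost without mock tcp21 replicate 2 or submerged tcp21 replicate 1, with adjusted p of up to 0.0734. Submerged libraries of CYCA1;1, CYCB1;2 and CYCB1;3, compared with the mock libraries, in tcp21 lay below them in 1 and overlapped with them in 2 of 3, and in Col lay above them in 2 and overlapped with them in 1. CYCB1;4, a mitotic cyclin, had 4.69, 3.16 and 3.64 CPM in submerged tcp21 and 8.89, 6.45 and 4.59 CPM in mock tcp21. In Col, CYCB1;4 had 3.94, 3.17 and 2.60 CPM in submerged and 1.60, 1.42 and 1.51 CPM in mock libraries. The response of CYCB1;4 differed by -1.90 ± 0.36, adjusted p = 1.58e-04. CYCB2;2, a mitotic cyclin, had 3.23, 2.19 and 2.69 CPM in submerged tcp21 and 3.32, 4.25 and 3.60 CPM in mock tcp21. In Col, CYCB2;2 had 4.26, 2.92 and 2.55 CPM in submerged and 1.07, 1.70 and 1.04 CPM in mock libraries. The response of CYCB2;2 differed by -1.82 ± 0.37, adjusted p = 3.12e-04. Set against the mock libraries, the submerged libraries of CYCB1;4 and CYCB2;2 in tcp21 lay below them in 1 and overlapped with them in 1 of 2, and in Col lay above them in 2.

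The other M class genes with a difference for tcp21 were kinases, anaphase activators and cytokinesis genes. CDKB1;1, a mitotic kinase, had 5.23, 5.45 and 4.70 CPM in submerged tcp21 and 4.45, 2.80 and 4.09 CPM in mock tcp21. In Col, CDKB1;1 had 5.02, 6.197 and 4.66 CPM in submerged and 0.845, 1.37 and 1.72 CPM in mock libraries. The response of CDKB1;1 differed by -1.59 ± 0.36, adjusted p = 0.00124. CDKB2;1, a mitotic kinase, had 11.9, 14.0 and 11.7 CPM in submerged tcp21 and 10.5, 13.2 and 13.1 CPM in mock tcp21. In Col, CDKB2;1 had 10.13, 10.5 and 11.04 CPM in submerged and 3.60, 5.53 and 5.22 CPM in mock libraries. The response of CDKB2;1 differed by -1.12 ± 0.22, adjusted p = 3.09e-04. CDKB2;2, a mitotic kinase, had 9.66, 10.6 and 10.14 CPM in submerged tcp21 and 6.52, 5.94 and 5.92 CPM in mock tcp21. In Col, CDKB2;2 had 8.96, 9.83 and 10.5 CPM in submerged and 2.62, 3.50 and 3.08 CPM in mock libraries. The response of CDKB2;2 differed by -0.96 ± 0.21, adjusted p = 7.97e-04. For CDKB1;1, CDKB2;1 and CDKB2;2 the submerged libraries, set against the mock libraries, in tcp21 lay above them in 2 and overlapped with them in 1 of 3, and in Col lay above them in 3. CDC20.1, an anaphase activator, had 17.1, 16.4 and 12.9 CPM in submerged tcp21 and 18.1, 13.1 and 12.7 CPM in mock tcp21. In Col, CDC20.1 had 14.9, 14.5 and 13.8 CPM in submerged and 4.81, 4.76 and 4.23 CPM in mock libraries. The response of CDC20.1 differed by -1.57 ± 0.27, adjusted p = 9.87e-05. CDC20.2, an anaphase activator, had 7.04, 7.90 and 6.23 CPM in submerged tcp21 and 6.99, 7.77 and 7.47 CPM in mock tcp21. In Col, CDC20.2 had 5.87, 5.64 and 4.91 CPM in submerged and 2.71, 2.13 and 2.25 CPM in mock libraries. The response of CDC20.2 differed by -1.27 ± 0.35, adjusted p = 0.00648. AUR2, an Aurora kinase, had 5.54, 6.01 and 5.91 CPM in submerged tcp21 and 5.92, 6.88 and 7.69 CPM in mock tcp21. In Col, AUR2 had 6.07, 7.05 and 5.74 CPM in submerged and 2.89, 2.74 and 3.86 CPM in mock libraries. The response of AUR2 differed by -1.21 ± 0.25, adjusted p = 4.09e-04. Compared with the mock libraries, submerged libraries of CDC20.1, CDC20.2 and AUR2 in tcp21 overlapped with them in 3 of 3, and in Col lay above them in 3. KNOLLE, the cytokinetic syntaxin, had 11.1, 11.5 and 8.61 CPM in submerged tcp21 and 6.70, 9.81 and 9.35 CPM in mock tcp21. In Col, KNOLLE had 9.25, 9.77 and 8.39 CPM in submerged and 2.40, 1.92 and 2.56 CPM in mock libraries. The response of KNOLLE differed by -1.71 ± 0.26, adjusted p = 6.82e-06. HIK, the cytokinetic kinesin, had 8.73, 10.14 and 6.76 CPM in submerged tcp21 and 12.9, 7.73 and 8.63 CPM in mock tcp21. In Col, HIK had 6.03, 7.51 and 5.15 CPM in submerged and 2.05, 2.85 and 3.29 CPM in mock libraries. The response of HIK differed by -1.40 ± 0.32, adjusted p = 0.00135. Submerged libraries of KNOLLE and HIK, compared with the mock libraries, in tcp21 overlapped with them in 2 of 2, and in Col lay above them in 2. Of the inhibitors, KRP2 differed. KRP2, a kinase inhibitor, had 3.59, 3.16 and 1.58 CPM in submerged tcp21 and 6.52, 7.22 and 6.92 CPM in mock tcp21. In Col, KRP2 had 3.94, 5.84 and 5.69 CPM in submerged and 4.27, 4.54 and 4.70 CPM in mock libraries. The response of KRP2 differed by -1.48 ± 0.30, adjusted p = 3.37e-04. For KRP2, in tcp21 the submerged libraries lay below the mock libraries, and in Col the groups overlapped.

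For tcpq the G1 and M classes gave 3 differences. CYCD1;1, a D-type cyclin, had 8.27, 8.91 and 8.96 CPM in submerged tcpq and 5.90, 5.18 and 4.59 CPM in mock tcpq. The response of CYCD1;1 differed by 0.85 ± 0.19, adjusted p = 6.47e-04. RBR1, the E2F-binding repressor, had 52.7, 51.9 and 51.2 CPM in submerged tcpq and 58.7, 57.1 and 61.8 CPM in mock tcpq. The response of RBR1 differed by -0.33 ± 0.12, adjusted p = 0.0422; the call was lost without mock Col replicate 2, mock Col replicate 3, submerged Col replicate 2, mock tcpq replicate 1, mock tcpq replicate 3, submerged tcpq replicate 1, submerged tcpq replicate 2 or submerged tcpq replicate 3, with adjusted p of up to 0.177. CDKB2;2, a mitotic kinase, had 7.72, 8.39 and 7.82 CPM in submerged tcpq and 4.04, 4.30 and 3.95 CPM in mock tcpq. The response of CDKB2;2 differed by -0.71 ± 0.22, adjusted p = 0.00995. Set against the mock libraries, the submerged libraries of CYCD1;1, RBR1 and CDKB2;2 in tcpq lay above them in 2 and below them in 1 of 3, and in Col lay above them in 1 and overlapped with them in 2.

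The S class gave 9 negative differences for tcpq. PCNA1, a replication clamp, had 5.08, 6.32 and 4.84 CPM in submerged tcpq and 10.4, 7.33 and 9.46 CPM in mock tcpq. In Col, PCNA1 had 6.55, 5.24 and 5.94 CPM in submerged and 2.76, 4.16 and 3.08 CPM in mock libraries. The response of PCNA1 differed by -1.59 ± 0.29, adjusted p = 8.58e-05. PCNA2, a replication clamp, had 11.1, 14.5 and 12.5 CPM in submerged tcpq and 13.4, 13.4 and 15.02 CPM in mock tcpq. In Col, PCNA2 had 17.2, 18.5 and 14.0 CPM in submerged and 8.76, 10.9 and 9.56 CPM in mock libraries. The response of PCNA2 differed by -0.90 ± 0.19, adjusted p = 4.25e-04. MCM2, a helicase subunit, had 9.37, 9.65 and 9.88 CPM in submerged tcpq and 22.6, 16.2 and 22.2 CPM in mock tcpq. In Col, MCM2 had 9.17, 7.91 and 7.41 CPM in submerged and 8.36, 8.15 and 6.01 CPM in mock libraries. The response of MCM2 differed by -1.20 ± 0.21, adjusted p = 4.95e-05. For PCNA1, PCNA2 and MCM2 the submerged libraries, set against the mock libraries, in tcpq lay below them in 2 and overlapped with them in 1 of 3, and in Col lay above them in 2 and overlapped with them in 1. MCM3, a helicase subunit, had 9.31, 12.2 and 9.92 CPM in submerged tcpq and 19.1, 16.1 and 19.3 CPM in mock tcpq. In Col, MCM3 had 9.13, 9.67 and 7.70 CPM in submerged and 7.30, 7.61 and 8.51 CPM in mock libraries. The response of MCM3 differed by -0.98 ± 0.20, adjusted p = 2.23e-04. MCM4, a helicase subunit, had 10.4, 11.4 and 10.5 CPM in submerged tcpq and 20.6, 17.1 and 20.11 CPM in mock tcpq. In Col, MCM4 had 10.13, 10.7 and 8.93 CPM in submerged and 9.65, 6.51 and 10.13 CPM in mock libraries. The response of MCM4 differed by -1.02 ± 0.21, adjusted p = 2.39e-04. MCM5, a helicase subunit, had 10.4, 10.2 and 9.34 CPM in submerged tcpq and 20.5, 19.5 and 22.3 CPM in mock tcpq. In Col, MCM5 had 10.4, 9.57 and 9.08 CPM in submerged and 7.21, 8.54 and 9.56 CPM in mock libraries. The response of MCM5 differed by -1.27 ± 0.17, adjusted p = 8.82e-07. Compared with the mock libraries, submerged libraries of MCM3, MCM4 and MCM5 in tcpq lay below them in 3 of 3, and in Col overlapped with them in 3. MCM6, a helicase subunit, had 4.96, 4.14 and 4.54 CPM in submerged tcpq and 12.9, 10.8 and 10.5 CPM in mock tcpq. In Col, MCM6 had 4.90, 5.09 and 3.43 CPM in submerged and 3.56, 3.78 and 2.77 CPM in mock libraries. The response of MCM6 differed by -1.74 ± 0.30, adjusted p = 2.59e-05. MCM7, a helicase subunit, had 11.9, 11.8 and 10.9 CPM in submerged tcpq and 25.3, 18.1 and 22.8 CPM in mock tcpq. The response of MCM7 differed by -0.72 ± 0.20, adjusted p = 0.00517. CDT1A, a licensing factor, had 8.57, 10.3 and 11.2 CPM in submerged tcpq and 11.99, 7.94 and 11.4 CPM in mock tcpq. The response of CDT1A differed by -0.96 ± 0.26, adjusted p = 0.00508. Submerged libraries of MCM6, MCM7 and CDT1A, compared with the mock libraries, in tcpq lay below them in 2 and overlapped with them in 1 of 3, and in Col lay above them in 1 and below them in 1 and overlapped with them in 1.

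Of the inhibitors, 2 differences were positive and 1 was negative for tcpq. KRP1, a kinase inhibitor, had 6.86, 7.13 and 8.49 CPM in submerged tcpq and 5.21, 4.72 and 4.33 CPM in mock tcpq. In Col, KRP1 had 5.99, 6.30 and 9.91 CPM in submerged and 14.7, 12.6 and 17.3 CPM in mock libraries. The response of KRP1 differed by 1.67 ± 0.25, adjusted p = 3.86e-06. KRP2, a kinase inhibitor, had 4.10, 4.19 and 3.70 CPM in submerged tcpq and 6.08, 7.75 and 7.28 CPM in mock tcpq. The response of KRP2 differed by -1.01 ± 0.30, adjusted p = 0.00851. LGO, a kinase inhibitor of endoreduplicating cells, had 2.39, 1.84 and 1.18 CPM in submerged tcpq and 0.947, 0.560 and 0.337 CPM in mock tcpq. In Col, LGO had 0.844, 0.756 and 0.834 CPM in submerged and 1.87, 0.438 and 1.04 CPM in mock libraries. The response of LGO differed by 1.98 ± 0.65, adjusted p = 0.0176; the call was lost without mock Col replicate 1, mock tcpq replicate 3 or submerged tcpq replicate 1, with adjusted p of up to 0.125. Set against the mock libraries, the submerged libraries of KRP1, KRP2 and LGO in tcpq lay above them in 2 and below them in 1 of 3, and in Col lay below them in 1 and overlapped with them in 2.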

How the results depend on the processing

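Of the 281 calls of a member in a comparison, none reversed under any alternative. The call was lost in 6 cases with DESeq2, 5 with the size factors of the relative log expression method (RLE), 13 when only the compared groups were fitted, 9 without the filter on low counts, 8 with the replicate number as a block and 0 with organelle genes left out. Leaving out each library in turn kept 221 of the 281 calls in every case and lost 60 in some. Counts of called members moved past 1.5 times the main count in these cases. For bak1-3 bkk1-1 against Col under submergence, DESeq2 called 1 in place of 0, and for the difference in response in the bak set it called 2 in place of 0. Over all genes DESeq2 also called more in these comparisons, as given above. For tcpq against tcp21 under submergence, the fit to the compared groups called 8 and DESeq2 called 7 in place of 4. Over all genes these fits called 2152 higher and 1782 lower, and 1644 and 1445, in place of 1648 and 1108. The cause was not tested. With libraries left out in turn, the counts ran from 0 to 1 for bak1-3 bkk1-1 against Col under submergence, from 6 to 12 for tcp21 against Col under submergence and from 1 to 2 for tcpq against Col under submergence. For the other comparisons they ran from 21 to 33 for submerged against mock Col in the bak set, 31 to 34 in bak1-3 bkk1-1, 24 to 26 in Col of the tcp set, 14 to 17 in tcp21 and 30 to 34 in tcpq, from 31 to 33 for tcp21 against Col in mock, 18 to 22 for tcpq against Col in mock, 31 to 34 and 3 to 4 for tcpq against tcp21 in mock and under submergence, and 17 to 21 and 13 to 17 for the differences in response of tcp21 and tcpq.

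The replicate numbers of the sample titles showed no pairing of the samples. The residual correlation of libraries with the same number lay between -0.093 and 0.071 in the bak set and between -0.076 and 0.068 in the tcp set. In some groups the submitters' library names carry other numbers than the titles, and pairing by those was not tested. With the replicate block, edgeR called 28 and 34 members for submerged against mock Col and bak1-3 bkk1-1 of the bak set, 0 in each genotype comparison of that set, 25, 16 and 33 for submergence in Col, tcp21 and tcpq of the tcp set, 31 and 11 for tcp21 against Col in mock and under submergence, 21 and 4 for tcpq against Col, 35 and 4 for tcpq against tcp21, and 20 and 14 for the differences in response of tcp21 and tcpq. The fit to the compared groups was not run for the difference in response of the bak set, which uses all its groups. With 3 libraries in a group, changes of low genes such as LGO and SIM, at under 3 CPM in the tcp set, were estimated with wide errors.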
